A study of Homo sapiens with 9 samples.

Results

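The G1 cyclins, their kinases and the inhibitors of those kinases were followed here in Raji, an established human B-cell line from a Burkitt lymphoma. The members were taken by name: CCND2, CCND3, CCNE1, CCNE2, CDK2, CDK4, CDK6, CDKN1A, CDKN1B and CDKN2C. Of these 10 genes, 9 were matched by identifier and symbol among the 15436 genes of the expression table, and CCND2 was not analysed here. All 9 passed the filter on low values and were tested.

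RNA came from cells given hydroxyurea (HU), thymidine with nocodazole (Thy-Noc) or the solvent DMSO, with 3 libraries in each group and the same cell line throughout. HU blocks ribonucleotide reductase and slows replication forks, and excess thymidine also holds back DNA synthesis. Nocodazole takes microtubules apart so that cells arrest in mitosis. The sources used here state neither doses nor times, nor that the replicates were separate cultures, so p-values measure only the spread between these libraries, which may be technical. Summed values ran from 74940755 to 110485145 per library. The B-cell label was borne out by its markers, with 7 of 7 (among them CD79A and PAX5) listed and abundant enough to test, against 0 of 6 T-cell, 0 of 5 myeloid, 0 of 4 epithelial and 1 of 4 fibroblast markers. Summed B-cell markers ran from 1640 to 2360 CPM in HU, from 1640 to 2600 CPM in Thy-Noc and from 1860 to 2310 CPM in DMSO, where CPM is the count scaled to library size. The fibroblast marker was COL1A1, at 8.07 to 13.7 CPM in HU, 1.96 to 5.18 CPM in Thy-Noc and 1.3 to 3.87 CPM in DMSO, and its part in the HU results was not tested.

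Cells commit to division in G1. D-type cyclins activate CDK4 and CDK6, which begin to phosphorylate the retinoblastoma protein, and E-type cyclins then activate CDK2, which completes this step and helps to start DNA replication. CDKN1A (p21) and CDKN1B (p27) bind cyclin-CDK complexes, whereas CDKN2C (p18) belongs to the INK4 inhibitors and binds CDK4 and CDK6 alone. Cyclin E mRNAs are made under E2F control and peak at the G1/S boundary.

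Among the members, the cyclin E2 gene was the 1 that rose past the test, and it did so in HU. By edgeR's quasi-likelihood test with a Benjamini-Hochberg adjusted p under 0.05, 1 of 9 members was called for HU against DMSO, beside 3.56% of all 11346 genes tested. There, 4 members had an unadjusted p under 0.05, beside 21.2% of all genes, 5 were called by DESeq2, beside 19.5%, and 1 by limma, beside 4.95%. For Thy-Noc against DMSO the edgeR count was 0 of 9, beside 0.0353% of all genes. The other counts there were 2 members at an unadjusted p under 0.05 (4.49% of all genes), 1 by DESeq2 (1.64%) and 0 by limma (0.106%). For HU against Thy-Noc the edgeR count was also 0 of 9, beside 1.75% of all genes. The other counts there were 2 members at an unadjusted p under 0.05 (19.4% of all genes), 2 by DESeq2 (16.7%) and 1 by limma (2.87%). Group ranges did not overlap for 3 members between HU and DMSO (30.7% of all genes), for 0 between Thy-Noc and DMSO (9.97%) and for 3 between HU and Thy-Noc (24.9%). In RNA from whole cultures, fewer cells that express a gene and less RNA per cell cannot be told apart. The HU comparisons share their HU libraries, and both comparisons against DMSO share the DMSO libraries.

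**Figure D1:**
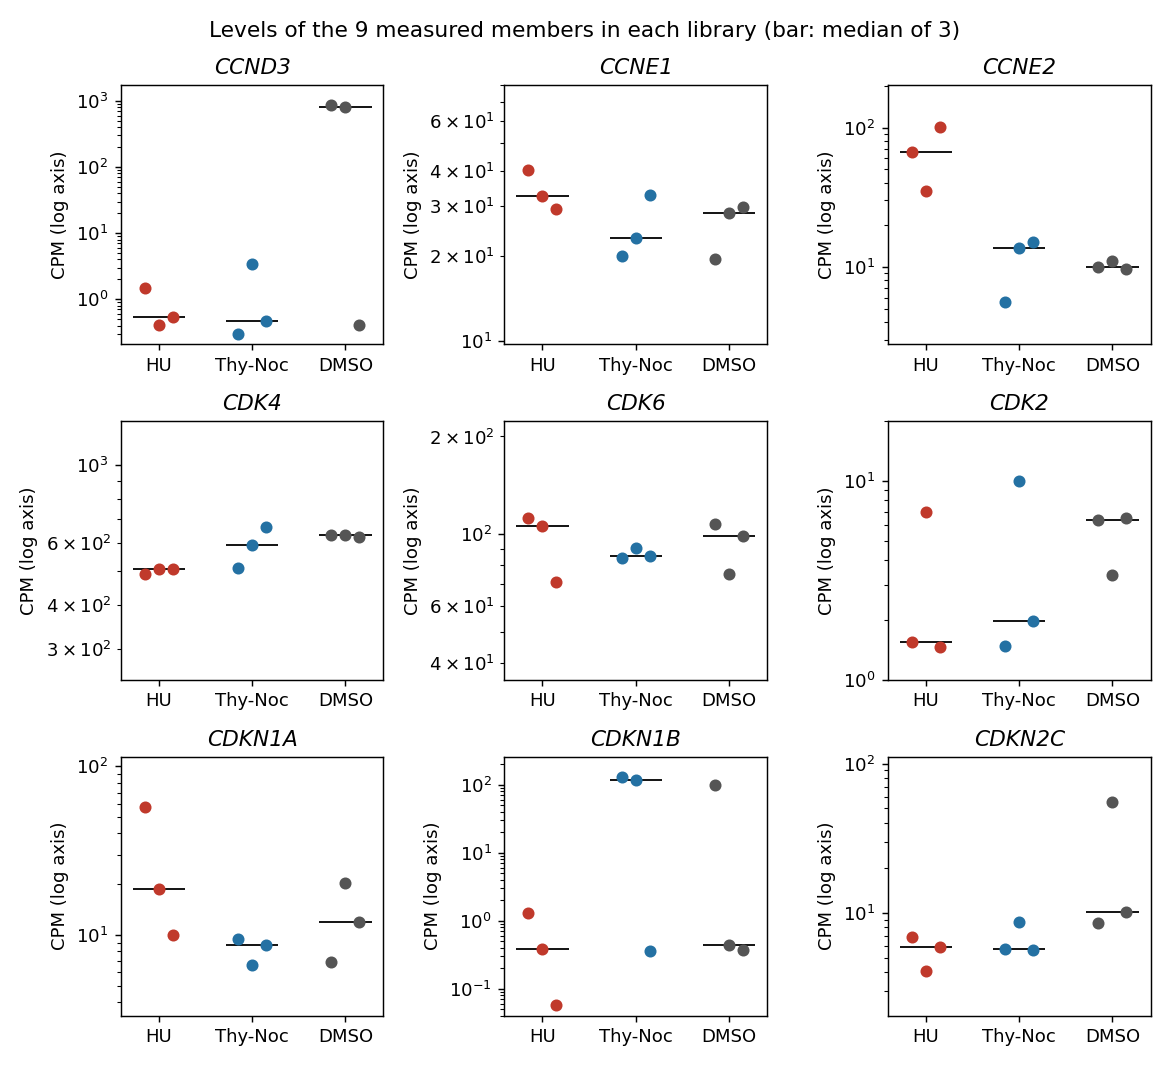
CPM of each of the 9 measured members in every library, on log axes that differ between panels, with HU, Thy-Noc and DMSO from left to right, 3 points per group and a bar at the median. CCNE2 sits at 35.1 to 101 CPM in HU, above all other libraries, while CCND3 and CDKN1B fall to about 1 CPM or less in some libraries and above 100 CPM in others.

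CCNE2, which encodes cyclin E2, stood at 66.3, 35.1 and 101 CPM in HU, at 5.58, 13.6 and 15.1 CPM in Thy-Noc and at 9.90, 11.0 and 9.69 CPM in DMSO. Every HU library lay above every library of both other groups, with the smallest rise in HU replicate 2, and the Thy-Noc range enclosed the DMSO range. Against DMSO the HU level was 6.62-fold higher (log2 fold change 2.73 ± 0.49 SE, 95% interval 1.57 to 3.89, edgeR adjusted p 0.0377). Against Thy-Noc it was 5.90-fold higher, a log2 fold change of 2.56 ± 0.49 that just missed the threshold (edgeR adjusted p 0.0545). Thy-Noc and DMSO differed by a log2 fold change of 0.17 ± 0.46, with an interval of −0.92 to 1.25 (edgeR adjusted p 1.0), so a change of up to about the upper bound was not resolved.

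The HU call for CCNE2 depended on which libraries entered the fit. It ended without HU replicate 1 (edgeR adjusted p 0.0934), HU replicate 3 (0.1), DMSO replicate 1 (0.12), DMSO replicate 2 (0.126), DMSO replicate 3 (0.121), Thy-Noc replicate 2 (0.0582) or Thy-Noc replicate 3 (0.0552), although the fold change itself stayed between 2.32 and 3.05 on the log2 scale. The gene (ENSG00000175305) is annotated on chromosome 8, 94879770 to 94896678, minus strand (GRCh38), and shares exonic bases with INTS8, an Integrator subunit gene on the opposite strand, and with an annotated antisense RNA. INTS8 stood at 3.16, 1.53 and 259 CPM in HU, with at most 4.84 CPM in Thy-Noc and 4.39 CPM in DMSO. The 1 HU library with high INTS8 was thus the library with the highest CCNE2, whereas HU replicate 1 held 66.3 CPM of CCNE2 beside 3.16 CPM of INTS8. Without HU replicate 3 the CCNE2 log2 fold change was 2.32. Whether reads of overlapping genes were kept apart was not tested, since the sources used here do not say whether counting used strand.

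**Figure D2:**
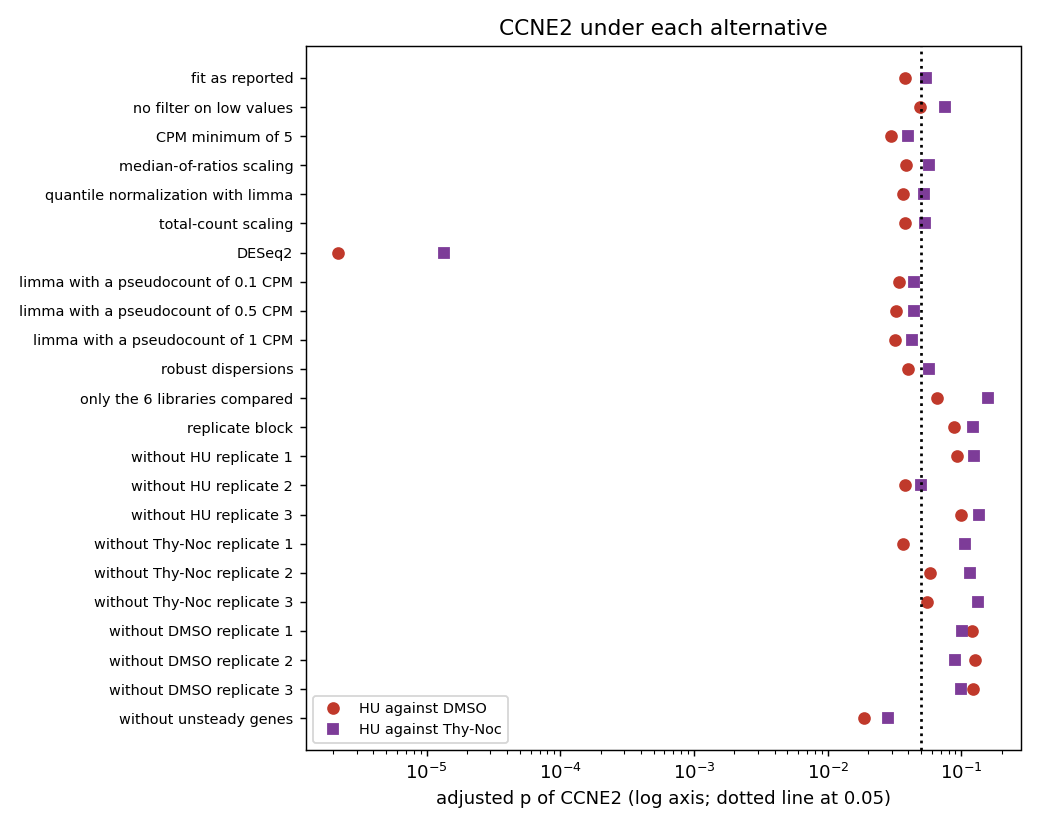
Adjusted p of CCNE2 (log axis) for HU against DMSO (circles) and HU against Thy-Noc (squares), with a dotted line at 0.05. The fit as reported and 22 alternatives are shown. Unsteady genes are those whose CPM + 0.5 differs at least 10-fold between libraries of 1 group. Most points crowd around the line, from 0.0186 to 0.158, and DESeq2 alone gives far smaller values of 2.19e-06 for HU against DMSO and 1.34e-05 for HU against Thy-Noc.

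CCNE1, the gene of the sister cyclin E1, moved far less. It stood at 40.1, 32.45 and 29.35 CPM in HU, at 19.98, 23.0 and 32.9 CPM in Thy-Noc and at 19.5, 28.4 and 29.7 CPM in DMSO. The groups overlapped in every comparison. HU against DMSO gave a log2 fold change of 0.39 ± 0.25 (95% interval −0.2 to 0.99, edgeR adjusted p 0.439), so the upper bound stays just under 1. The corresponding value was −0.03 ± 0.25 for Thy-Noc against DMSO (−0.63 to 0.56) and 0.42 ± 0.25 for HU against Thy-Noc (−0.17 to 1.02).

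The balance between both E-type cyclins was read within each library, where library scaling drops out. The CCNE2 to CCNE1 ratio of CPM + 0.5 was 1.64, 1.08 and 3.41 in HU, 0.297, 0.599 and 0.468 in Thy-Noc and 0.519, 0.398 and 0.338 in DMSO. All 3 HU libraries had more CCNE2 than CCNE1 counts, and all 6 others had fewer. On the log2 scale the ratio averaged 0.87 ± 0.84 in HU and −1.28 ± 0.31 in DMSO (SD, n = 3 each), a difference of 2.15 with an exact 2-sided permutation p of 0.1, the smallest that 3 against 3 can give. Against Thy-Noc, at −1.20 ± 0.51, the difference was 2.06 with the same exact p of 0.1, and adjusted over the 12 ratio tests both came to 0.4. Per kilobase of annotated exon, mean CCNE2 was 15.4 in HU, 2.60 in Thy-Noc and 2.32 in DMSO (CPM per kb). Mean CCNE1 was 13.3 in HU, 9.92 in Thy-Noc and 10.1 in DMSO. The length used joins the exons of all annotated transcripts (4397 bases for CCNE2, 2550 for CCNE1). The transcripts expressed may be shorter, so levels of different genes compare only roughly.

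**Figure D3:**
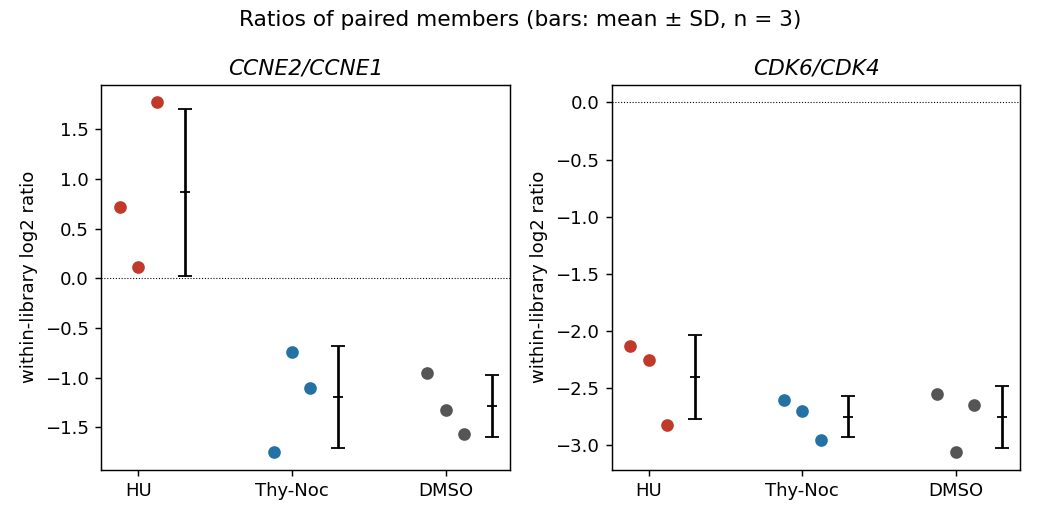
Within-library log2 ratios of CCNE2 to CCNE1 (left) and of CDK6 to CDK4 (right) by group, 1 point per library, with the mean ± SD of 3 libraries beside them and a dotted line at equal values. The CCNE2 to CCNE1 ratio is above 0 in all 3 HU libraries and below 0 in the 6 others, while the CDK6 to CDK4 ratios of the groups overlap.

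E-type cyclin genes are textbook E2F targets, but the CCNE1 start region held none of the E2F forms searched. The region is shown with its GC boxes marked instead. It lies at chr19:29811741-29812040 on the plus strand (RefSeq, GRCh38.p14), from 250 bases before to 50 after the annotated start. Capitals mark the GC box GGGCGG or its reverse complement, which occurs 7 times here and at least once in 45.0% of 35116 such regions.
CCNE1: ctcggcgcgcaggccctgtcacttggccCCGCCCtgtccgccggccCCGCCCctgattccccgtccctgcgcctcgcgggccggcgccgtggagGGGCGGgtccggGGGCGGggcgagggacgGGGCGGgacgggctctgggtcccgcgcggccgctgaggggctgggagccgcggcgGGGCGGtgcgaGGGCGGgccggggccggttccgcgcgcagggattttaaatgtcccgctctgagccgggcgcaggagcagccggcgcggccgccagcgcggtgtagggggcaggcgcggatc
The E2F forms TTTGGCGC, TTTCCCGC, TTTGCCGC and TTTCGCGC, read on both strands, are in 3.31% of these regions and in 0 of the 12 held for 7 of the 10 members (CCND3, CCNE1, CDK4, CDK6, CDKN1A, CDKN1B and CDKN2C). CCND2, CCNE2 and CDK2 had no entry. A match, or its lack, describes only these letters in this window.

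CCND3, the gene of cyclin D3, the D-type cyclin of many germinal centre and lymphoma B cells, had values that differed widely between libraries of 1 group. It stood at 1.49, 0.401 and 0.533 CPM in HU, at 0.300, 3.42 and 0.465 CPM in Thy-Noc and at 872, 796 and 0.406 CPM in DMSO. DMSO replicates 1 and 2 were far above every HU and Thy-Noc library, whereas DMSO replicate 3 was as low as these. The sources used here do not say whether a value covers all transcripts of its gene, a limit that holds for every member and list gene. For genes such as CCND3, CDKN1B and RB1, a value near 0 thus does not show that the gene was silent. The log2 fold changes of −9.43 ± 2.61 for HU against DMSO and −8.64 ± 2.53 for Thy-Noc against DMSO did not pass (edgeR adjusted p 0.1 and 1.0). DESeq2 called both (adjusted p 3.68e-07 and 5.02e-05) and limma neither. Measured on CPM + 0.5, libraries of 1 group differed at least 10-fold in 2 of the 9 members, CCND3 and CDKN1B, beside 16.2% of all tested genes. CCND3 (ENSG00000112576, chromosome 6, 41934933 to 42050357, minus strand) has 23 annotated transcripts and 3 start regions in the RefSeq table.  Across the 9 libraries, the log2 patterns most like CCND3 were those of ECD and SUPT5H (Pearson r 0.989 and 0.958), genes that were likewise high only in DMSO replicates 1 and 2.

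The CDK4 kinase gene was abundant in every library. It stood at 491, 507 and 505 CPM in HU, at 511, 591 and 666 CPM in Thy-Noc and at 630.4, 630.9 and 623 CPM in DMSO. Every HU library lay below every library of both other groups, and the DMSO libraries spread by only 0.707% (coefficient of variation), against 1.71% in HU and 13.1% in Thy-Noc. The level in HU was 0.798 of that in DMSO (log2 fold change −0.33 ± 0.10, 95% interval −0.56 to −0.09), with an unadjusted p of 0.0139 and an edgeR adjusted p of 0.126. DESeq2 called this difference (adjusted p 0.0108), while limma did not (0.105). It shrank to −0.22 under total-count scaling, where the median of all genes was 0.119 in place of 0.018, and to −0.17 under quantile normalization. Thy-Noc differed from DMSO by −0.09 ± 0.10 (−0.33 to 0.15) and HU from Thy-Noc by −0.23 ± 0.10 (edgeR adjusted p 0.263). Per kilobase of annotated exon, CDK4 averaged 158, 186 and 198 CPM in HU, Thy-Noc and DMSO.

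CDK4 is a known MYC target, and MYC is deregulated in Burkitt lymphoma, so its start region is shown with the E-box CACGTG that MYC-MAX dimers recognise in capitals. The region is chr12:57752261-57752560 on the minus strand (RefSeq, GRCh38.p14).
CDK4: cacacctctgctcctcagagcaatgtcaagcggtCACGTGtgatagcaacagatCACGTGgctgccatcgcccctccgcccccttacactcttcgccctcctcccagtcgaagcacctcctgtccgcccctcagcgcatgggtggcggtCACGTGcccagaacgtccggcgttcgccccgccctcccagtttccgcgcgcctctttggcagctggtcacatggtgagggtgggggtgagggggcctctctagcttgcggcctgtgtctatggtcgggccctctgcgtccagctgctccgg
The E-box occurs 3 times, without touching the 3 GC boxes of the same window, and at least once in 7.26% of all such regions. TSPAN31 shares exonic bases with CDK4 on the opposite strand and stood at 0.267 to 3.52 CPM in HU, 0.859 to 16.1 CPM in Thy-Noc and 0.624 to 2.24 CPM in DMSO, far below CDK4.

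CDK6, the partner kinase of CDK4 in haematopoietic cells, showed no resolved change. It stood at 112, 106 and 71.0 CPM in HU, at 84.1, 90.6 and 85.8 CPM in Thy-Noc and at 108, 75.2 and 98.6 CPM in DMSO, with overlap in every comparison. The log2 fold change was 0.04 ± 0.20 for HU against DMSO, with a 95% interval of −0.44 to 0.51, and −0.11 ± 0.20 for Thy-Noc against DMSO, with an interval of −0.58 to 0.36. The HU value turned negative without HU replicate 1, HU replicate 2 or DMSO replicate 2, at −0.08, −0.02 and −0.09. The CDK6 to CDK4 log2 ratio averaged −2.40 ± 0.37 in HU and −2.75 ± 0.27 in DMSO (SD, n = 3 each), a difference of 0.35 with an exact permutation p of 0.3. Per kilobase, CDK6 averaged 7.86, 7.08 and 7.65 CPM in HU, Thy-Noc and DMSO, under CDK4 in each group. The joined exon length is 12260 bases for CDK6 and 3168 for CDK4, which widens the gap seen in CPM. The lengths of the transcripts expressed were not known.

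CDK2, the kinase that E-type cyclins activate, was low and variable. It stood at 1.55, 6.93 and 1.47 CPM in HU, at 1.49, 10.02 and 1.99 CPM in Thy-Noc and at 6.34, 3.35 and 6.48 CPM in DMSO. Replicate 2 was the high library of HU and of Thy-Noc and the low library of DMSO. No comparison passed, with log2 fold changes of −0.70 ± 0.91, −0.26 ± 0.91 and −0.44 ± 0.91 for HU against DMSO, Thy-Noc against DMSO and HU against Thy-Noc. The interval for HU against DMSO ran from −2.83 to 1.44, so neither a fall of several fold nor a rise up to the upper bound was resolved. The gene has 12 annotated transcripts and shares exonic bases with PMEL on the opposite strand.

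**Figure D4:**
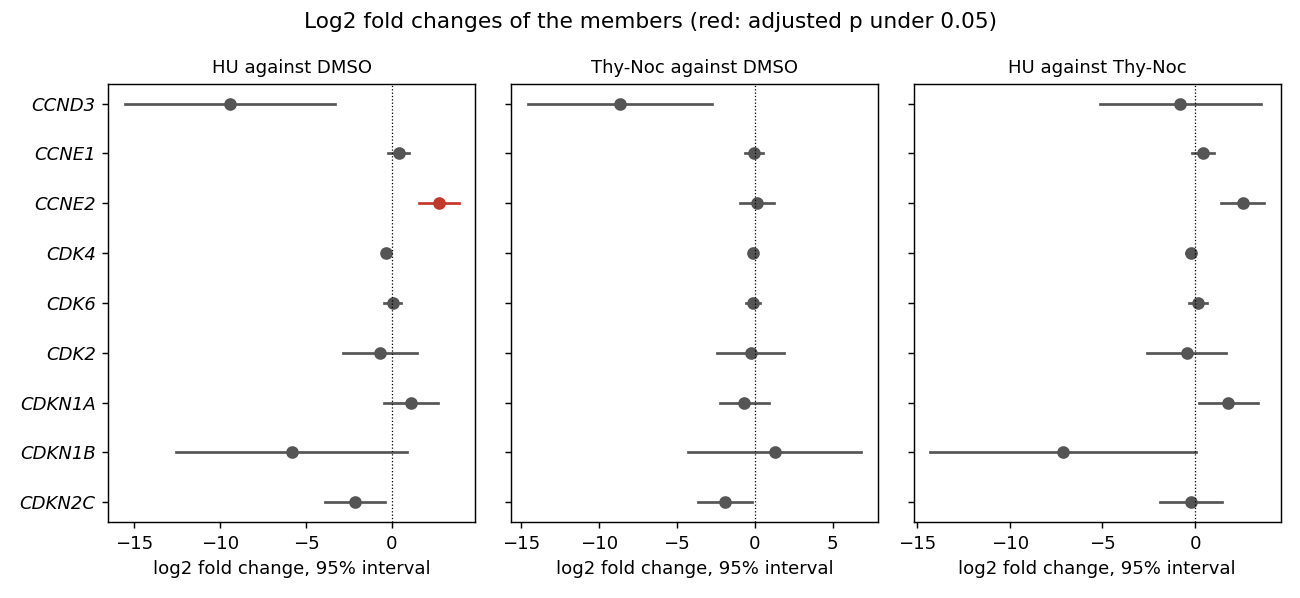
Log2 fold changes of the 9 members (points) with 95% intervals (lines) for HU against DMSO, Thy-Noc against DMSO and HU against Thy-Noc, where positive means higher in the first group named. CCNE2 in HU against DMSO, at 2.73, is the 1 value past an adjusted p of 0.05 (red), and the intervals of CCND3 and CDKN1B are the widest.

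CDKN1A, which encodes p21, was highest in HU in a single library. It stood at 57.2, 18.7 and 10.02 CPM in HU, at 9.51, 6.65 and 8.66 CPM in Thy-Noc and at 6.96, 20.2 and 11.9 CPM in DMSO. HU and DMSO overlapped, whereas all HU libraries lay above all Thy-Noc libraries by a narrow margin. HU against Thy-Noc gave a log2 fold change of 1.79 ± 0.68 (95% interval 0.2 to 3.38, unadjusted p 0.032, edgeR adjusted p 0.212). HU against DMSO gave 1.14 ± 0.66 (−0.43 to 2.70, edgeR adjusted p 0.388), and without HU replicate 1 this value was 0.15 and that against Thy-Noc 0.80. Thy-Noc against DMSO gave −0.66 ± 0.66, or −0.19 without DMSO replicate 2.

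CDKN1B, which encodes p27, also had values that differed widely within groups. It stood at 1.31, 0.388 and 0.0571 CPM in HU, at 130.1, 116 and 0.362 CPM in Thy-Noc and at 100.1, 0.438 and 0.368 CPM in DMSO. The value was near 0 in all 3 HU libraries, in Thy-Noc replicate 3 and in DMSO replicates 2 and 3, and at 100.1 CPM or more in the other 3 libraries. No comparison passed by edgeR, with log2 fold changes of −5.84 ± 2.88 for HU against DMSO, −7.13 ± 3.05 for HU against Thy-Noc and 1.29 ± 2.36 for Thy-Noc against DMSO. Without DMSO replicate 1, the HU against DMSO value became 0.53 (edgeR adjusted p 0.941), so that difference rested on 1 library. Without the same library the Thy-Noc against DMSO value was 7.67, and without DMSO replicate 2 or 3 it was 0.71. DESeq2 called HU against DMSO (adjusted p 0.0235) and HU against Thy-Noc (0.00462). OSBPL2, MTA3 and TRIP4 had the most similar log2 patterns over the 9 libraries (Pearson r 0.993, 0.984 and 0.98), being high in the same 3 libraries. CDKN1B has 4 annotated transcripts and no annotated gene sharing its exons.

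CDKN2C, the p18 gene, was low in all but 1 library. It stood at 6.87, 4.09 and 5.94 CPM in HU, at 5.74, 8.67 and 5.60 CPM in Thy-Noc and at 8.49, 55.7 and 10.1 CPM in DMSO. The HU and DMSO ranges did not overlap, the Thy-Noc range reached just past the lowest DMSO library, and DMSO replicate 2 stood far above the rest. HU against DMSO gave a log2 fold change of −2.13 ± 0.74 (95% interval −3.88 to −0.39, unadjusted p 0.023, edgeR adjusted p 0.16), which DESeq2 alone called, and Thy-Noc against DMSO gave −1.89 ± 0.74 (unadjusted p 0.0361, edgeR adjusted p 1.0). Without DMSO replicate 2 these values shrank to −0.71 and −0.47, so their size rested on that library. DPH2, CAST and ACAD9 had the most similar log2 patterns (Pearson r 0.945, 0.942 and 0.914). They too were highest in DMSO replicate 2, at 22.4, 202 and 222 CPM.

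The table of starts holds 3 regions for CDKN2C, and the 1 with E2F letters is shown, at chr1:50968456-50968755 on the plus strand (RefSeq, GRCh38.p14). Capitals mark a shorter E2F core on either strand, which is any of the E2F forms named for CCNE1 without its first T.
CDKN2C: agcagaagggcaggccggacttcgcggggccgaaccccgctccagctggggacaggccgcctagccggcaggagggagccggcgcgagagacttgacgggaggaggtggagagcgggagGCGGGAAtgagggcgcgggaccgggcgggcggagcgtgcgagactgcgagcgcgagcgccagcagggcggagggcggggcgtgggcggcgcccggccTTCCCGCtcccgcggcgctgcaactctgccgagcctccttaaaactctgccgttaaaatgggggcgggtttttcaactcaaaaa
The core occurs 2 times, without touching the 6 GC boxes of the window, and at least once in 13% of all such regions. It is absent from the other start regions held for the members, among them the CCNE1 region and the other CDKN2C regions. The longer forms named for CCNE1 are in 3.31% of these regions, so the shorter core sets a region apart less.

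Other genes of the pathway were read from lists and described by their counts. For HU against DMSO, edgeR called 3.56% of all tested genes, DESeq2 19.5% and limma 4.95%, and 21.2% had an unadjusted p under 0.05. For Thy-Noc against DMSO these shares were 0.0353%, 1.64%, 0.106% and 4.49%. For HU against Thy-Noc they were 1.75%, 16.7%, 2.87% and 19.4%. The list counts that follow are to be read beside these shares. Of 5 tested S and M phase cyclins with CDK1, CCNA2, the cyclin A2 gene, fell in HU. It stood at 46.7, 38.7 and 52.4 CPM in HU, at 89.9, 80.3 and 92.5 CPM in Thy-Noc and at 77.6, 85.0 and 87.8 CPM in DMSO. The HU libraries lay below all others, with log2 fold changes of −0.86 ± 0.13 against DMSO and −0.93 ± 0.13 against Thy-Noc (edgeR adjusted p 0.0259 and 0.0335). The call against DMSO ended without HU replicate 1 (0.0811), HU replicate 3 (0.0571) or any 1 DMSO library (0.08 to 0.0932), and that against Thy-Noc ended without any 1 library except HU replicate 2 (0.0615 to 0.121). With only the 6 libraries compared, both CCNA2 calls ended (0.0704 and 0.116), and that against Thy-Noc also ended with no filter on low values (0.0545) and under total-count scaling (0.0531). The median of this list was −0.86 for HU against DMSO, beside 0.018 over all tested genes. With 5 genes, this median equals the rounded value of CCNA2, so it does not show a fall of the whole list. In that comparison 4 genes were lower and 1 was higher, and an unadjusted p below 0.05 was reached by 2. Measured on CPM + 0.5, libraries of 1 group differed at least 10-fold for 2 of the 5.

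Among 23 tested E2F target genes of G1/S, the single edgeR call for HU against DMSO was SLBP, the histone stem-loop binding protein, which rose to 254, 230 and 287 CPM in HU (log2 fold change 1.75 ± 0.12, edgeR adjusted p 0.00329). It also rose in Thy-Noc, where CCNE2 did not pass, at 232, 286 and 263 CPM in Thy-Noc against 77.3, 73.6 and 79.0 CPM in DMSO (log2 fold change 1.76 ± 0.12, edgeR adjusted p 0.00518). MCM6, a subunit of the replicative helicase, was nearest to the threshold for HU against Thy-Noc, at 146 ± 15.9 CPM in HU and 193 ± 22.9 CPM in Thy-Noc (SD, n = 3 each, edgeR adjusted p 0.141). In HU against DMSO 6 of the list had an unadjusted p under 0.05, 3 were called by DESeq2 and 2 by limma. The list median was 0.04 for HU against DMSO and −0.07 for Thy-Noc against DMSO.

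Of 19 tested RB pocket, E2F and DREAM genes, edgeR called 0 in every comparison. For HU against DMSO 5 had an unadjusted p under 0.05, 5 were called by DESeq2 and 0 by limma. For Thy-Noc against DMSO these counts were 1, 0 and 0, and for HU against Thy-Noc 2, 2 and 0. MYBL2, the B-Myb transcription factor of late cell cycle genes, averaged 13 ± 0.479 CPM in HU and 23.5 ± 3.0 CPM in DMSO (log2 fold change −0.85 ± 0.20, edgeR adjusted p 0.0652). RB1 itself stood at 0.998, 177 and 236 CPM in HU, with at most 0.61 CPM in Thy-Noc and 0.787 CPM in DMSO, with the same limit as for CCND3 (HU against Thy-Noc, edgeR adjusted p 0.118).

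Of 3 tested further family members, CDKN2A, the INK4A and ARF gene, stood at 338, 298 and 351 CPM in HU, at 222, 268 and 266 CPM in Thy-Noc and at 267, 211 and 254 CPM in DMSO. All HU libraries were above all others, with log2 fold changes of 0.43 ± 0.13 against DMSO and 0.38 ± 0.13 against Thy-Noc that did not pass (edgeR adjusted p 0.116 and 0.169). EdgeR called 0 of the 3 in any comparison; for HU against DMSO 2 had an unadjusted p under 0.05, 2 were called by DESeq2 and 0 by limma. For Thy-Noc against DMSO these counts were 0, 0 and 0, and for HU against Thy-Noc 3, 1 and 0.

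CDC25A, the phosphatase that activates CDK2, stood at 83.9, 109 and 118 CPM in HU, against 58.5, 72.8 and 68.5 CPM in DMSO, a log2 fold change of 0.64 ± 0.16 (edgeR adjusted p 0.0844). Its list of CDK-activating and CDK-phosphorylating genes had 0 calls among 7 tested in every comparison. Unadjusted p was under 0.05 for 2, 1 and 3 genes in HU against DMSO, Thy-Noc against DMSO and HU against Thy-Noc, with 2, 0 and 1 called by DESeq2 and 0 by limma. Among 17 tested ubiquitin ligase genes for G1 cyclins and inhibitors, edgeR and limma called 0 in every comparison. There, 0, 2 and 0 had an unadjusted p under 0.05 and 2, 0 and 1 were called by DESeq2 in the same order of comparisons.

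Among 11 tested FOXO target and quiescence genes, BTG1, an antiproliferative factor of lymphocytes, rose in HU. It stood at 35.4, 33.2 and 35.8 CPM in HU, at 20.5, 20 and 19.8 CPM in Thy-Noc and at 17.1, 18.0 and 18.7 CPM in DMSO. The log2 fold change was 0.96 ± 0.11 against DMSO and 0.79 ± 0.11 against Thy-Noc (edgeR adjusted p 0.0154 and 0.03). The call against DMSO ended without HU replicate 1 (0.0598) or any 1 DMSO library (0.057 to 0.0603), and that against Thy-Noc ended without any 1 library except HU replicate 2 (0.0581 to 0.117). Both BTG1 calls ended with only the 6 libraries compared (0.0558 and 0.116). Of 12 tested upstream factors such as MYC and its partners, edgeR and limma called 0 in every comparison. There, 2, 0 and 1 had an unadjusted p under 0.05 and 2, 0 and 1 were called by DESeq2, and MNT, a MYC antagonist, stood at 17.8 ± 1.30 CPM in HU and 23.4 ± 0.837 CPM in DMSO (SD, n = 3 each, edgeR adjusted p 0.141).

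Likeness to CCNE2 over the 9 libraries was highest for NCKAP1L, GNL1 and SLC20A1, with Pearson r of 0.986, 0.983 and 0.98 on the log2 scale. NCKAP1L averaged 126 CPM in HU, 84.4 CPM in Thy-Noc and 81.4 CPM in DMSO. Likeness to CDK4 was highest for MRPL57 (0.982), at 17.3 CPM in HU, 22.5 CPM in Thy-Noc and 24.1 CPM in DMSO. These values describe 9 libraries that share their groups and were picked as the highest of all tested genes.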

How the data were processed

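RNA libraries of HU, Thy-Noc and DMSO cells, 3 each, were made with a stranded mRNA kit, per the labels' protocols. The authors deposited 1 table whose name says CPM, but its values are whole numbers with differing totals, so they were read as estimated counts; none is below 1. FastQC, Trim Galore, STAR, DESeq2 and GRCh38 appear in the submitters' processing notes, and the sources used here give no roles, versions, counter or strand setting. Identifiers were paired with symbols for 15393 of 15436 genes, and GENCODE 29 (GRCh38) gave coordinates and transcripts.

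The 11346 genes that reached 1 CPM in 3 or more libraries were scaled by TMM and fitted in edgeR 4.0.16 (R 4.3.3) with a quasi-likelihood model of the 3 groups, with 6 residual and 1.25 prior degrees of freedom. Tests were 2-sided, adjusted by Benjamini-Hochberg over all 11346 genes, with a threshold of 0.05. Intervals are 95% t intervals, and standard errors came from the fold change and F. Depth is high, so the spread between libraries sets the precision. Exact permutation tests used SciPy 1.17.1. DESeq2 1.42.0 and limma 3.58.1 on log2(CPM + 0.5) were alternatives. The model fits alone were tested on simulated data. There the spread between libraries was capped, so it was smaller than for many genes here. The ratio planned for CCND2 and CCND3 was not computed.

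Members and lists were chosen with earlier results of these data known. Named genes are the members, called list genes (up to 4 per direction with a mean of at least 2 CPM), otherwise the list gene with the smallest p, and the 3 genes most like a member (mean of at least 5 CPM); some of these are not reported here.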

Additional observations from a re-analysis of the deposited data

How the results depend on the processing

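Across 22 alternatives, members kept direction and side of the threshold in 547 of 583 values. Most of these values were not called in the fit as reported, so they had no call to lose. The 1 called value, CCNE2 in HU against DMSO, kept its call in 13 alternatives and lost it in 9. CCNE2 in HU against DMSO ranged from 2.32 to 3.05 without 1 library and lost its call with only the 6 libraries compared (2.72, edgeR adjusted p 0.0655). Genes called for HU against DMSO numbered 404, and 220 with no filter, 2135 by DESeq2, 51 with 6 libraries and 21 to 318 without 1 library. They numbered 716 without genes that differ at least 10-fold in CPM + 0.5 within a group (chosen after seeing the data). For Thy-Noc against DMSO they numbered 4, and 11 under quantile normalization, 179 by DESeq2, 7, 12 and 12 by limma with a pseudocount of 0.1, 0.5 and 1 CPM, and 5 to 13 without 1 library. For HU against Thy-Noc they numbered 199, and 64 with no filter, 313 with a CPM minimum of 5, 1826 by DESeq2, 311, 326 and 346 by limma at the same pseudocounts, 18 with 6 libraries, 471 without the unsteady genes and 1 to 154 without 1 library. The cause of these shifts was not tested.

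Directions turned when 1 library was left out in these cases. For HU against DMSO, CDK6 ran from −0.09 to 0.22, CDKN1B from −7.24 to 0.53 and the CDKN2C to CDKN1B ratio from −2.11 to 2.58. For Thy-Noc against DMSO, CCNE1 ran from −0.26 to 0.11, CCNE2 from −0.08 to 0.5, CDK2 from −1.63 to 0.16, CDK4 from −0.18 to 0.0, the CCNE2 to CCNE1 ratio from −0.14 to 0.36 and the CDK6 to CDK4 ratio from −0.15 to 0.11. For HU against Thy-Noc, CCND3 ran from −1.57 to 1.08 and CDK2 from −1.56 to 0.94.

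Deviations from the group means correlated at −0.035 to 0.04 between same-numbered libraries and at −0.054 to 0.033 between the others. This gave no sign of pairing by replicate number. It cannot show that same-numbered libraries were made apart, since the spread within groups may hide a shared part. With the replicate number as a block, 9, 0 and 0 genes were called for HU against DMSO, Thy-Noc against DMSO and HU against Thy-Noc, and CCNE2 in HU against DMSO had a log2 fold change of 2.65 (edgeR adjusted p 0.0875). The block also ended the calls of CCNA2 (0.0672 against DMSO, 0.0918 against Thy-Noc) and BTG1 (0.0652 and 0.0996) in HU and of SLBP in Thy-Noc against DMSO (0.0855).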
